A study of Mus musculus with 8 samples.

Results

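Expression of 44 listed glycolysis and hypoxia-inducible genes was measured by RNA sequencing in primary mouse articular chondrocytes that had received a miR-204 mimic or a control small RNA (miR-Ctrl). The genes were found by symbol among the 24067 genes of the deposited table, and 42 of them averaged 1 FPKM or more in the 8 libraries. FPKM counts sequenced fragments per length of transcript and per number of mapped fragments in a library. The glucose transporter gene Slc2a3 (mean 0.259 FPKM) and Ankrd37, a HIF target (0.754 FPKM), stayed below that level, and Egln3 (1.02 FPKM) was the gene closest above it. A total of 11612 genes of the table reached the same level.

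The cells came from the knee ends of the femur and tibia of ICR mice, an outbred stock, at 5 days of age. They were grown in DMEM with 10% fetal bovine serum and antibiotics at 37°C, in 5% CO2 and 3% O2, so both groups were kept at low oxygen and no library at ambient oxygen was analysed here. One group of 4 libraries had been transfected with 50 nM miR-204 mimic, and the other group of 4 had been transfected with 50 nM miR-Ctrl. Transfection lasted 24 h in each group and RNA was taken 24 h later. The labels do not say whether replicates were separate animals, litters or cultures. The p-values therefore reflect no more than the variation among these libraries, and that variation may be technical.

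Glycolysis splits glucose into pyruvate in the cytosol and yields ATP without oxygen, and lactate dehydrogenase then turns pyruvate into lactate. Hypoxia-inducible factors (HIFs) pair an oxygen-sensitive alpha subunit with a stable partner. Prolyl hydroxylases mark the alpha subunit for destruction while oxygen is present, and at low oxygen it binds short DNA elements near glycolytic, pH-regulating, angiogenic and collagen-modifying genes. Cartilage has no blood vessels, and chondrocytes rely largely on glycolysis and on HIF activity for survival and matrix secretion. miR-204 is a microRNA that lowers transcripts whose 3′ UTR matches its seed, the short stretch near its 5′ end.

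The sequence of mouse miR-204-5p is shown because its seed (bases 2 to 8, in capitals) defines which transcripts it can pair with. It lies on the plus strand at chr19:22750610-22750631 (RefSeq, GRCm38.p6).
miR-204-5p: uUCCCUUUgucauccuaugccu
The longest annotated 3′ UTR (GENCODE M21, mm10) of each gene was searched for the 8mer AAAGGGAA, the 7mer-m8 AAAGGGA and the 7mer-A1 AAGGGAA, each match counted once as its longest form. Of the 42 genes, 3 held a 7mer or 8mer, against 24.0% of 11192 tested genes with an annotated 3′ UTR. Not 1 of the 42 held an 8mer, against 6.93% of those genes. The 3 sites are shown with flanking bases and the match in capitals, since they are the direct seed matches among these genes.
Slc16a3 (7mer-A1, match at chr11:120960204-120960210, plus strand): ctgaactgactAAGGGAAggctatattt
Tpi1 (7mer-A1, match at chr6:124810733-124810739, minus strand): atcctacatgtAAGGGAAataaacacct
Car12 (7mer-m8, match at chr9:66765014-66765020, plus strand): tagtggggatgAAAGGGAgacagagaat
Slc16a3 encodes a lactate exporter, Tpi1 triosephosphate isomerase and Car12 a membrane carbonic anhydrase. Their levels are given below, and a match is a description and not a shown site of repression. The Slc16a3 site lies past the RefSeq end of the gene (chr11:120959000), so it depends on the longer GENCODE 3′ UTR. Whether these cells make that longer form was not tested.

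The promoters were searched for the core of the hypoxia response element, ACGTG or GCGTG, on both strands of the 250 bases before each transcription start in the RefSeq table (GRCm38.p6). The palindrome CACGTG holds ACGTG on both strands, and is also an E-box. Of the 38 genes found in the table, 34 had at least 1 core, or 89.5%, against 62.5% of 9272 tested genes. Counted per promoter, 42 of 54 had a core (77.8%), against 56.3% of 11863 promoters of tested genes. The genes were listed as glycolysis and hypoxia-inducible genes, so a higher share could follow from how the list was made. With ACGTG alone, 22 of the 38 had a match (57.9%, against 25.6%). Epas1, Bnip3l, Ndrg1 and Plod2 were not in the table. The windows below belong to genes that stood at least 1.5-fold above the other replicates in both replicate 2 libraries, a pattern described further on. They were chosen after those values were seen. Of these 10 genes, 9 were in the table and 7 of them had ACGTG, against 22 of all 38. The 38 include those 9, and Egln3, 1 of the 7, passed the FPKM filter only through replicate 2. No conclusion is drawn from these counts. The cores shown for Slc16a1 and Pfkfb3 lie within CACGTG, the E-box. Genes that were lowest in replicate 2 of both groups also had cores, ACGTG for Pfkm and Pdk3 and GCGTG for Aldoc and Ldhb. Whether a core has a part in the replicate 2 pattern was not tested. The core is in capitals, on the gene's strand as written or, where the capitals begin with C, read from the opposite strand. The distance runs to an annotated start, and a gene can have more than 1. For Hif1a, Slc16a3, Pfkfb3 and Ldha the window lies inside the full gene span, so that start is an internal one.
Hif1a (chr12:73907785-73907813, plus strand, 70 bases before the start): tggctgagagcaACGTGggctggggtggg
Egln3 (chr12:54204087-54204115, minus strand, 229 bases before the start): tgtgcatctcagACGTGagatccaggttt
Slc16a1 (chr3:104638453-104638481, plus strand, 199 bases before the start): cggcgccgggtcACGTGgcgggaaggggg
Slc16a3 (chr11:120949041-120949066, plus strand, 14 bases before the start): cgtgcgcgggggACGTGccgcgcgac
Pfkfb3 (chr2:11502126-11502154, minus strand, 52 bases before the start): acccttctctccACGTGaaagggggctgg
Ldha (chr7:46845758-46845786, plus strand, 34 bases before the start): cgtgggttcccgCACGTccgctgggctcc
Car9 (chr4:43506996-43507024, plus strand, 18 bases before the start): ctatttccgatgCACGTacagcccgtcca
Adm (chr7:110627591-110627619, plus strand, 54 bases before the start): ggcaaatctgacCACGCccaccgtccgcc
Car12, the tenth gene, had no core in its window, and no match says only that these letters are absent there.

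The libraries carried the markers of their labelled cell type. All 11 chondrocyte markers reached 1 FPKM, and their sum was 13106 to 33261 FPKM with miR-204 and 12876 to 41421 FPKM with miR-Ctrl, lowest in replicate 2 of each group. Fibroblast markers (5 of 5 at 1 FPKM or above) summed to 1502 to 3466 FPKM with miR-204 and 1565 to 3316 FPKM with miR-Ctrl. Endothelial and erythroid markers stayed at or below a summed 0.419 FPKM in every library. The deposited table holds no read totals. Relative depth was estimated from the spacing of low FPKM values, with miR-Ctrl replicate 1 set to 1. It was 0.798 (miR-204) and 0.773 (miR-Ctrl) in the replicate 2 libraries, against 0.929 to 0.963 in the other 5. How FPKM was scaled is not fully known, so these estimates may differ from ratios of read totals.

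**Figure D1:**
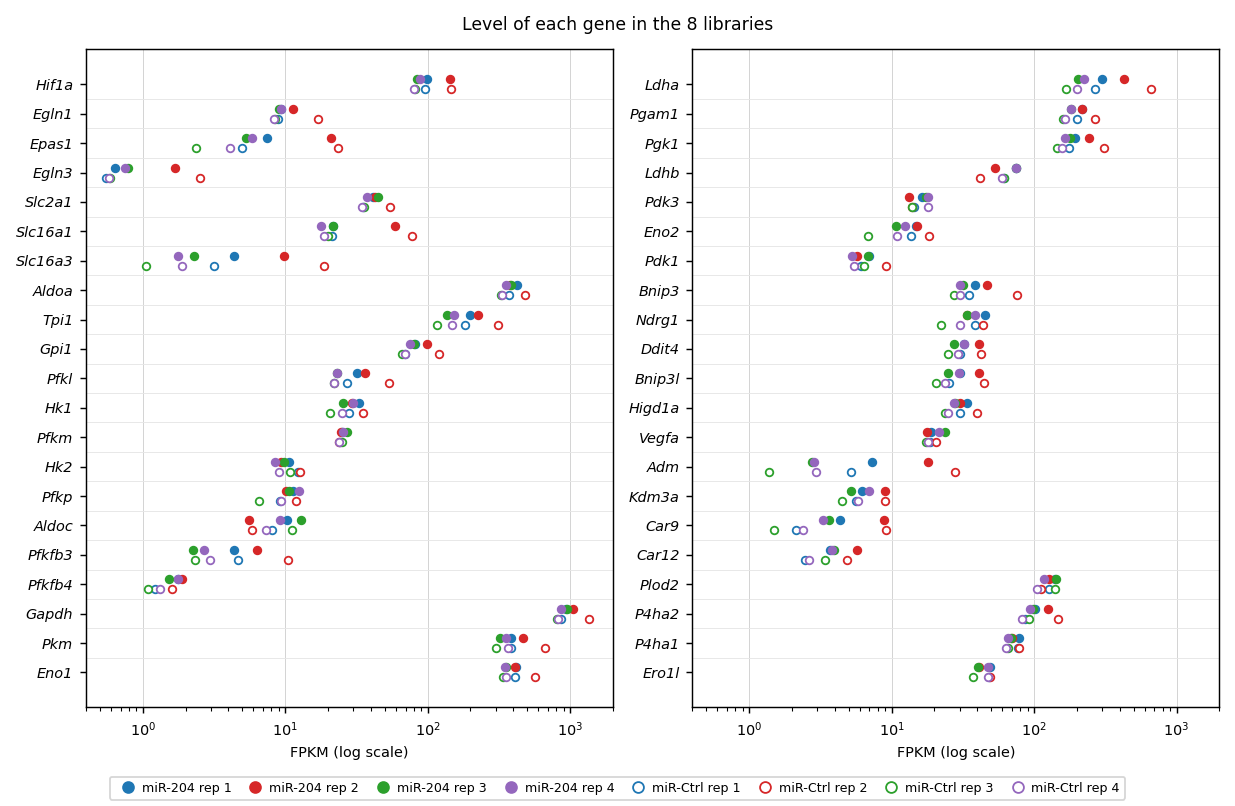
Each row is 1 of the 42 genes, grouped by role and sorted by mean, and each point is 1 library on a log FPKM axis; filled points are miR-204, open points miR-Ctrl, and colour is the replicate number. Gapdh is highest at 806 to 1359 FPKM, and the open red points (miR-Ctrl replicate 2) lie farthest right for 37 of the 42 genes within miR-Ctrl.

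The oxygen-sensing genes were led by Hif1a, which encodes the oxygen-regulated alpha subunit and lies at chr12:73901324-73947554. In replicates 1 to 4, the order used below, Hif1a stood at 98.7, 143, 84.6 and 88.7 FPKM with miR-204, against 95.3, 147, 81.9 and 80.8 FPKM with miR-Ctrl. The groups overlapped and replicate 2 was the highest of each. Egln1, the main prolyl hydroxylase acting on HIF alpha, was at 9.32, 11.3, 9.11 and 9.29 FPKM with miR-204, against 8.87, 17.1, 8.48 and 8.40 FPKM with miR-Ctrl. Epas1, which encodes a related alpha subunit, ranged from 2.38 to 23.4 FPKM. Hif1a was 6.82- to 16.0-fold above Epas1 with miR-204 and 6.27- to 34.4-fold above it with miR-Ctrl, with the lowest ratio in replicate 2 of each group. Egln3, a prolyl hydroxylase that is itself a HIF target, ranged from 0.555 to 2.52 FPKM.

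Among transporters, Slc2a1, the higher of the 2 listed glucose importers, was at 41.6, 42.5, 44.7 and 37.4 FPKM with miR-204, against 35.5, 54.8, 35.8 and 34.6 FPKM with miR-Ctrl. Slc16a1, a carrier of lactate and pyruvate, was at 21.8, 58.6, 21.7 and 18.0 FPKM with miR-204, against 21.5, 77.2, 19.9 and 18.8 FPKM with miR-Ctrl. Replicate 2 stood far above the rest in each group for Slc16a1, and for Slc2a1 only in miR-Ctrl. Slc16a3, with its seed match, was at 1.79 to 9.86 FPKM with miR-204 and at 1.05 to 18.9 FPKM with miR-Ctrl, and its highest library was again replicate 2 in each group. Slc16a1 exceeded Slc16a3 in all 8 libraries, by 4.09- to 18.9-fold.

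The upper glycolytic enzymes were led by Aldoa, the main aldolase, at 425, 377, 386 and 357 FPKM with miR-204, against 371, 486, 325 and 333 FPKM with miR-Ctrl. Tpi1, which interconverts the triose phosphates and carries a seed match, was at 197, 227, 138 and 154 FPKM with miR-204, against 182, 314, 116 and 148 FPKM with miR-Ctrl. The groups overlapped for each. Gpi1, glucose phosphate isomerase, averaged 82.5 FPKM. Of the hexokinases, which trap glucose in the cell, Hk1 averaged 28.3 FPKM and Hk2 10.4 FPKM, and of the phosphofructokinase subunits Pfkl averaged 29.97, Pfkm 25.0 and Pfkp 10.2 FPKM. Pfkm varied least of the 42 genes across the 8 libraries, from 24.0 to 27.3 FPKM. Aldoc, a second aldolase, averaged 8.81 FPKM. Pfkfb3 and Pfkfb4 encode bifunctional enzymes that set the level of a sugar phosphate activating phosphofructokinase, and averaged 4.53 and 1.53 FPKM.

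The lower part of the pathway held the highest levels. Gapdh, the dehydrogenase that opens it, was at 934, 1054, 946 and 859 FPKM with miR-204, against 859, 1359, 806 and 818 FPKM with miR-Ctrl. Pkm, pyruvate kinase, was at 385, 468, 325 and 356 FPKM with miR-204, against 386, 665, 304 and 369 FPKM with miR-Ctrl. In each gene miR-Ctrl replicate 2 was the highest of the 8 libraries. Gapdh stood above every other member in all 8 libraries. Pkm (407 FPKM on average), Eno1 (402), Aldoa (383) and Ldha (307) followed, and the ranges of these 4 overlapped. Pgam1, Pgk1 and Tpi1 averaged 199, 196 and 185 FPKM, also with overlapping ranges. Eno2, the second enolase, averaged 12.9 FPKM, and the pyruvate dehydrogenase kinase genes Pdk3 and Pdk1, whose products hold pyruvate out of the mitochondrial cycle, averaged 15.7 and 6.503 FPKM. Gapdh, Ldha, Eno1, Pgam1, Pkm, Aldoa and Tpi1 have processed copies elsewhere in the genome, and how reads were divided between gene and copies is unknown, which makes these levels uncertain.

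The 17 genes of the glycolytic enzymes and lactate dehydrogenases together took 0.755, 0.766, 0.661 and 0.680% of all FPKM with miR-204, against 0.725, 1.01, 0.599 and 0.668% with miR-Ctrl. The share was highest in replicate 2 of each group. It was higher with miR-204 in replicates 1, 3 and 4 and lower in replicate 2.

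The 10 measured genes of the wider hypoxia response were led by Bnip3 and Ndrg1. Bnip3, a mitophagy receptor gene, was at 38.4, 47.0, 31.9 and 30.4 FPKM with miR-204, against 34.9, 76.4, 27.3 and 29.98 FPKM with miR-Ctrl. Ndrg1, a stress-responsive gene, was at 45.4, 33.9, 33.6 and 38.5 FPKM with miR-204, against 38.8, 43.8, 22.2 and 30.3 FPKM with miR-Ctrl. The groups overlapped for each. Ddit4, an inhibitor of mTORC1 signalling, averaged 32.6 FPKM, the mitophagy receptor gene Bnip3l 30.05, the mitochondrial Higd1a 29.7 and the angiogenic factor Vegfa 19.6. Adm, which encodes the vasodilator adrenomedullin, averaged 8.54 FPKM, the histone demethylase gene Kdm3a 6.55, and the carbonic anhydrase genes Car9 and Car12, which regulate pH at the cell surface, 4.40 and 3.82. Adm had the widest range of the 42 genes, 20.2-fold, from 1.39 to 28.0 FPKM.

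The 4 genes for oxygen-dependent collagen processing and secretion varied at most 1.76-fold across the 8 libraries, the range of P4ha2. Plod2, a collagen lysyl hydroxylase, was at 140, 128, 142 and 118 FPKM with miR-204, against 128, 112, 139 and 105 FPKM with miR-Ctrl. P4ha2, a catalytic subunit of collagen prolyl hydroxylase, was at 102, 126, 98.7 and 93.3 FPKM with miR-204, against 86.1, 146, 91.6 and 83.0 FPKM with miR-Ctrl. Only P4ha2 of these had replicate 2 as its highest library in each group. The other catalytic subunit gene, P4ha1, ranged from 63.9 to 78.5 FPKM and the endoplasmic reticulum oxidase gene Ero1l from 37.0 to 49.4 FPKM.

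The comparison of miR-204 with miR-Ctrl asked whether the mimic moved these genes. Tested over all 11612 genes with limma on log2(FPKM + 1) and Benjamini-Hochberg adjustment, 0 of the 42 genes were higher and 0 were lower at an adjusted p under 0.05, against 0.0258% and 0.181% of all genes. The smallest adjusted p among the 42 was 0.505, that of Pfkfb4, which was also the only one with an unadjusted p under 0.05 (0.0281; 6.57% of all genes were higher at that level and 2.02% lower). For none of the 42 were the 4 miR-204 values all above or all below the 4 miR-Ctrl values, which was so for 5.9% of all genes. In these bulk samples, fewer cells of a type and less RNA per cell cannot be told apart.

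The log2 fold change (miR-204 over miR-Ctrl) was above 0 for 29 of the 42 genes (74.1% of all genes), and its median was 0.058 against 0.064 over all genes. With each library centred on its median gene, 21 of the 42 were above 0 and the medians were −0.0064 and 0.00012. The largest fold changes were those of Car9 (0.49, SE 0.45), Epas1 (0.42, SE 0.64), Car12 (0.30, SE 0.19) and Ldhb (0.29, SE 0.16). At the other end were Pfkfb3 (−0.22, SE 0.41) and Hk2 (−0.21, SE 0.11). By role, the median was 0.026 for oxygen sensing, 0.031 for transport, 0.068 for upper glycolysis, 0.024 for lower glycolysis, 0.12 for the hypoxia response and 0.034 for collagen processing. The 3 genes with a seed match had values of 0.031 (Slc16a3, SE 0.73), −0.013 (Tpi1, SE 0.30) and 0.30 (Car12, SE 0.19). With SEs this large, the values of Slc16a3 and Tpi1 in this fit cannot tell no change from a sizeable one. In the fit within replicate numbers, given next, the fold changes were the same and the SEs were 0.23 for Slc16a3 and 0.11 for Tpi1.

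Libraries of equal replicate number resembled each other. The comparison was also made within numbers, with the number as a block in the limma fit. There, 3 of the 42 genes were higher with miR-204 and 0 lower, against 12.4% and 2.83% of all genes. The 3 were Ldhb, Car12 and Pfkfb4, and each was higher with miR-204 in 4 of 4 pairs. At an unadjusted p under 0.05, 8 of the 42 were higher and 1 (Hk2) lower, against 29.9% and 5.73% of all genes.

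Ldhb (chr6:142490249-142507957) encodes the lactate dehydrogenase subunit that favours turning lactate back into pyruvate. It was at 74.3, 53.1, 74.2 and 74.8 FPKM with miR-204, against 61.9, 41.9, 62.0 and 59.5 FPKM with miR-Ctrl. Replicate 2 was the lowest of each group, and the groups overlapped only through it. The means were 69.1 ± 10.7 and 56.3 ± 9.70 FPKM (SD, n = 4 each), and the log2 fold change of 0.29 had a limma adjusted p of 0.00761 with the block (SE 0.034) and 0.664 without it. With the block and centred libraries it was 0.23 (limma adjusted p = 0.0163). With the block but without replicate 1 or replicate 4, the limma adjusted p was 0.0522 or 0.0734.

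Car12 (chr9:66712296-66766845) was at 3.69, 5.74, 3.94 and 3.81 FPKM with miR-204, against 2.46, 4.83, 3.41 and 2.65 FPKM with miR-Ctrl. The means were 4.30 ± 0.966 and 3.34 ± 1.08 FPKM (SD, n = 4 each), and the limma adjusted p was 0.0270 with the block and 0.701 without it. Pfkfb4 (chr9:108988272-109032236) was at 1.76, 1.90, 1.52 and 1.78 FPKM with miR-204, against 1.23, 1.61, 1.10 and 1.33 FPKM with miR-Ctrl. Its log2 fold change was 0.24, with a limma adjusted p of 0.0365 with the block. The groups overlapped for each of these low genes. With the block and centred libraries the limma adjusted p was 0.0635 for Car12 and 0.0911 for Pfkfb4. In the blocked fit without replicate 1, 3 or 4, Car12 had a limma adjusted p of 0.111, 0.0600 or 0.138 and Pfkfb4 of 0.129, 0.108 or 0.142.

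Hk2, the inducible hexokinase gene, was chosen for description after its values were seen. It was at 10.6, 9.34, 9.83 and 8.53 FPKM with miR-204, against 12.3, 12.8, 10.8 and 9.10 FPKM with miR-Ctrl, and was lower with miR-204 in 4 of 4 pairs. Its limma adjusted p was 0.0663 with the block (log2 fold change −0.21) and 0.0334 with the block and centred libraries (−0.27). In that last fit Ldhb and Hk2 were the only 2 of the 42 called, 1 higher and 1 lower, against 4.99% and 4.32% of all genes. The ratio of Hk1 to Hk2 was 3.11, 3.18, 2.60 and 3.50 with miR-204, against 2.28, 2.74, 1.91 and 2.75 with miR-Ctrl. It was the higher with miR-204 within every number, while the groups overlapped.

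**Figure D2:**
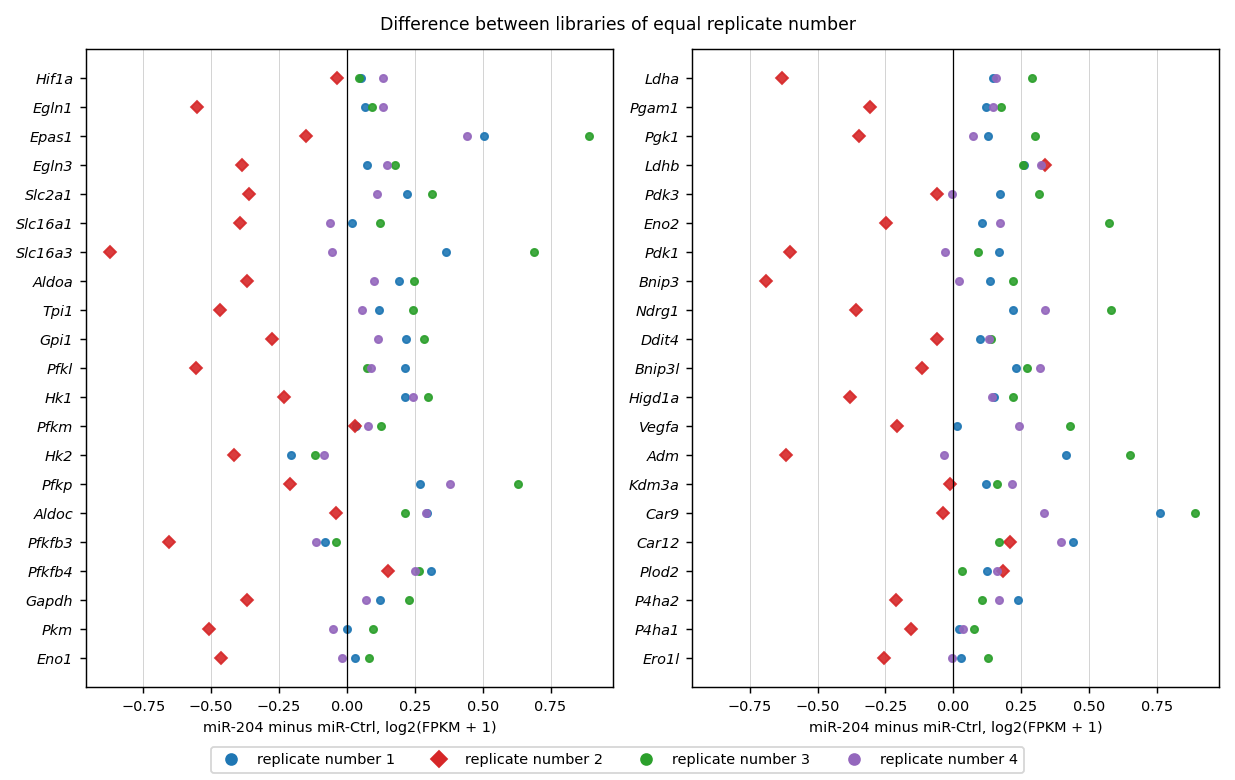
Each row is 1 of the 42 genes and each point is the log2(FPKM + 1) value of the miR-204 library minus that of the miR-Ctrl library of equal replicate number; red diamonds are number 2. Number 2 lies left of the other 3 numbers for 39 of the 42 genes, and left of 0 for all but Pfkm, Pfkfb4, Ldhb, Car12 and Plod2.

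The 4 pairs did not move alike. With miR-204, 39 of the 42 genes were higher in replicate 1, 5 in replicate 2, 40 in replicate 3 and 32 in replicate 4, against 64.2%, 61.8%, 73.9% and 70.2% of all genes. The median differences over the 42 genes were 0.14, −0.29, 0.22 and 0.13, and those over all genes were 0.052, 0.044, 0.097 and 0.069. The difference in replicate 2 lay below those of the other 3 pairs for 39 of the 42 genes, against 40.1% of all genes. A total of 27 genes were lower in replicate 2 and higher in the other 3 pairs (16% of all genes). Higher in all 4 pairs were Pfkm, Pfkfb4, Ldhb, Car12 and Plod2 (33.9% of all genes), and lower in all 4 were Hk2 and Pfkfb3 (7.44%). Replicate 2 has 1 library per group, so how its difference departs from the others has no replicate check.

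Ldha, the lactate-producing subunit gene, shows this split. It was at 299, 428, 204.3 and 224 FPKM with miR-204, against 270, 663, 167 and 201 FPKM with miR-Ctrl. The paired differences were 0.15, −0.63, 0.29 and 0.16 on the log2(FPKM + 1) scale. Over all 4 pairs its log2 fold change was −0.0095 (limma adjusted p = 0.972 with the block), and without replicate 2 it was 0.20 (0.0207).

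With the block and without replicate 2, a total of 19 of the 42 genes were higher and 0 lower, against 23.9% and 4.5% of all genes. They were Epas1, Slc2a1, Hk1, Gpi1, Pfkp, Pfkfb4, Aldoa, Aldoc, Pgam1, Ldha, Ldhb, Bnip3l, Car9, Car12, Ndrg1, Ddit4, Higd1a, Kdm3a and P4ha2. The largest values were 0.66 for Car9 (SE 0.11, limma adjusted p = 0.0132), 0.61 for Epas1 (SE 0.09, 0.0108), 0.43 for Pfkp (SE 0.07, 0.0135) and 0.38 for Ndrg1 (SE 0.07, 0.0165). The median over the 42 genes was then 0.17, against 0.072 over all genes. With centred libraries as well, 8 were higher (Epas1, Hk1, Pfkp, Aldoc, Ldhb, Bnip3l, Car9 and Ndrg1) and 1 lower (Hk2), against 10.9% and 8.84% of all genes. With the block but without replicate 1, 3 or 4, the number higher was 0, 1 (Ldhb) or 0, against 0.766%, 2.03% and 0.362% of all genes. Without replicate 2 and without the block, 0 of the 42 were called by limma and 11 were higher at an unadjusted p under 0.05 (11.7% of all genes). For most of the 42 genes the replicate 2 difference lay below those of the other pairs, as given above. Leaving that pair out therefore had to raise the uncentred fold changes of these genes. The calls without replicate 2 are thus no separate support for a rise with miR-204.

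Replicate 2 held the highest level of its group for 24 of the 42 genes with miR-204 and for 37 with miR-Ctrl. It was the highest in both groups for 24 genes, against 38.4% of all genes. It reached at least 1.5-fold the mean of the other 3 libraries in both groups for 10 genes (6.05% of all genes), namely Hif1a, Epas1, Egln3, Slc16a1, Slc16a3, Pfkfb3, Ldha, Car9, Car12 and Adm. Egln3 passed the filter only through replicate 2, so its place in this count was fixed by the filter. Among genes that averaged 1 FPKM or more in the other 6 libraries, 9 of 41 members and 5.42% of all genes stood as high.

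The folds over the other 3 libraries were larger with miR-Ctrl for each of these 10. Adm stood 4.19-fold above them with miR-204 and 8.82-fold with miR-Ctrl, Slc16a3 3.50- and 9.27-fold, and Epas1 3.37- and 6.13-fold. Ldha stood 1.77- and 3.12-fold above them. Lowest in replicate 2 of both groups were Pfkm, Aldoc, Ldhb and Pdk3 (12.6% of all genes), with Ldhb at 0.713-fold with miR-204 and 0.685-fold with miR-Ctrl, and Aldoc at 0.519- and 0.656-fold. The lactate dehydrogenase genes thus lay on opposite sides, and the ratio of Ldha to Ldhb was 4.02, 8.06, 2.75 and 3.00 with miR-204, against 4.37, 15.8, 2.70 and 3.37 with miR-Ctrl. Aldoa over Aldoc was also highest in replicate 2, at 67.1 with miR-204 and 83.6 with miR-Ctrl, against 29.3 to 45.5 in the other 6 libraries. With miR-204 this rested on Aldoc alone. Aldoa in replicate 2 stood at 0.969-fold the mean of the other 3 libraries with miR-204 and at 1.42-fold with miR-Ctrl.

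**Figure D3:**
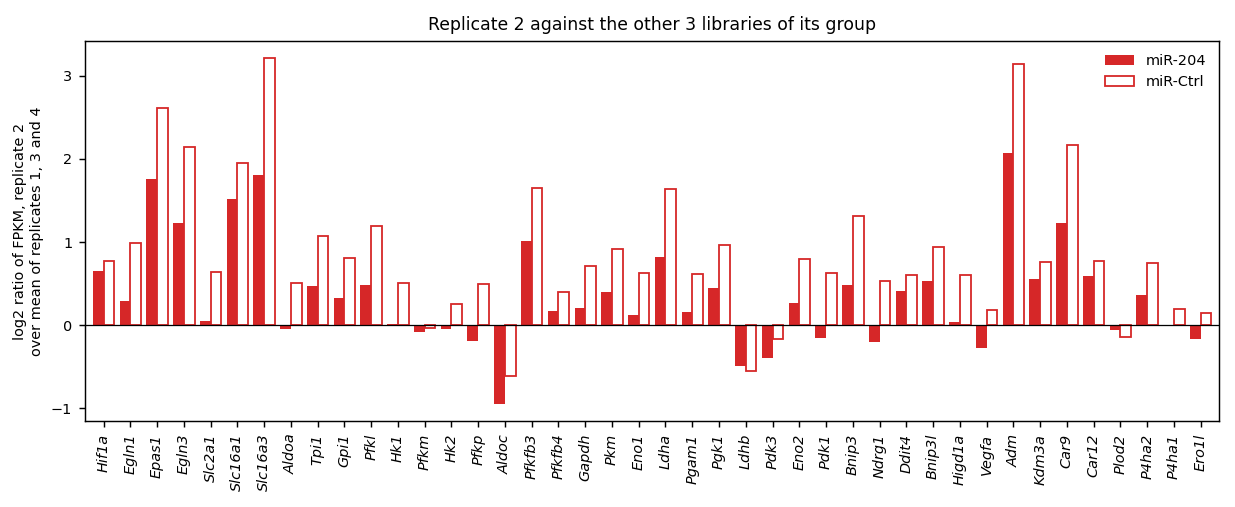
For each of the 42 genes, bars give the log2 ratio of replicate 2 to the mean of replicates 1, 3 and 4 of its own group, filled for miR-204 and open for miR-Ctrl. Slc16a3 and Adm have the longest bars (9.27- and 8.82-fold with miR-Ctrl), and Aldoc and Ldhb point down in both groups.

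Several marker levels moved with the number as well. The summed chondrocyte markers were 13106 FPKM in miR-204 replicate 2 and 12876 FPKM in miR-Ctrl replicate 2, against 25403 to 41421 FPKM in the other 6 libraries. Osteoblast markers (3 of 4 at 1 FPKM or above) summed to 23.6 and 22.8 FPKM in replicate 2 of miR-204 and of miR-Ctrl, against 5.22 to 11.7 FPKM in the other 6. Ibsp (14.3 and 12.1 FPKM there) and Bglap (6.998 and 9.15) made up most of that sum, while the osteoblast transcription factor gene Sp7 was at 2.16 and 1.47 FPKM, against 1.80 to 3.79 FPKM in the other 6. Adipocyte markers, of which Fabp4 made up nearly all while Adipoq and Plin1 stayed below 1 FPKM on average, summed to 19.5 and 31.8 FPKM, against 0.395 to 7.33 FPKM. Of the macrophage markers, Cd68 made up nearly all of the summed level. Cd68 was at 4.75, 4.74, 3.49 and 2.76 FPKM with miR-204, against 2.00, 2.22, 0.545 and 1.28 FPKM with miR-Ctrl, without overlap, while the pan-leukocyte gene Ptprc averaged 0.011 FPKM. The part of these markers, and of the lower estimated depth of replicate 2, in the levels of the 42 genes was not tested.

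**Figure D4:**
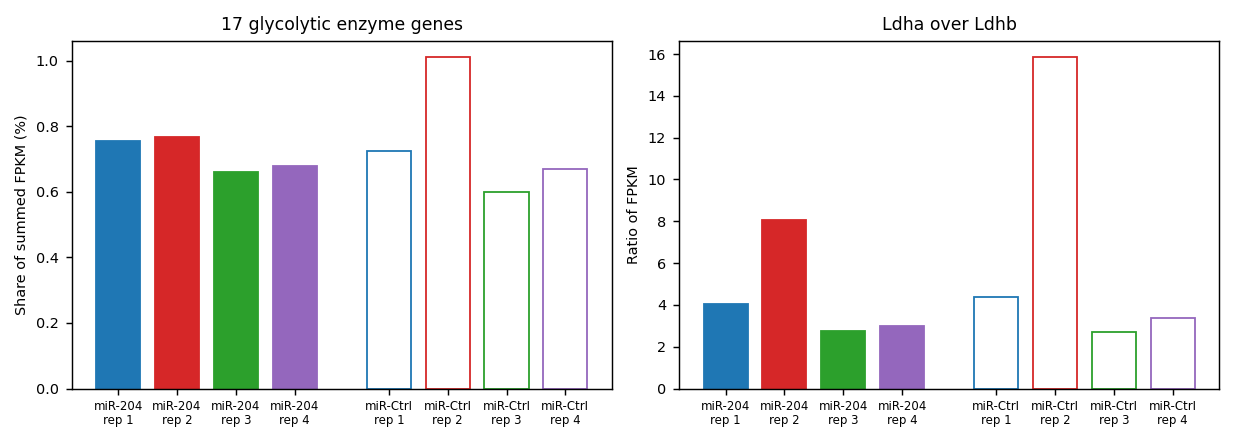
Bars give, for each library, the share of summed FPKM (%) taken by the 17 glycolytic enzyme and lactate dehydrogenase genes on the left and the ratio of Ldha to Ldhb FPKM on the right; filled bars are miR-204 and open bars miR-Ctrl, with axes from 0. miR-Ctrl replicate 2 is highest in each panel (1.01% and 15.8), and miR-204 replicate 2 comes next (0.766% and 8.06).

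A wider list of 88 further genes of oxygen sensing, glucose metabolism and hypoxia targets had 73 above the filter. Without the block, 0 of them were higher and 1 was lower by limma, and with the block 6 were higher and 1 lower. The shares over all genes were 0.0258% and 0.181% without the block, and 12.4% and 2.83% with it. The gene lower in each fit was Ak4, a mitochondrial adenylate kinase and HIF target. It was at 4.77, 5.29, 4.71 and 3.97 FPKM with miR-204, against 11.4, 19.2, 12.7 and 10.6 FPKM with miR-Ctrl, without overlap. Its log2 fold change was −1.32, with a limma adjusted p of 0.0310 without the block and 0.00268 with it. Ak4 was lower in all 4 pairs. Without the block, the list's count of lower genes became 0 when any 1 library other than miR-Ctrl replicate 2 was left out.

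The 5 next largest changes called in the list were all higher with miR-204 in the blocked fit. Eno3, the muscle enolase gene, averaged 7.09 ± 1.99 and 4.96 ± 1.14 FPKM with miR-204 and with miR-Ctrl (SD, n = 4 each), a log2 fold change of 0.42 (limma adjusted p = 0.0173). Muscle markers, of which Acta1 alone of 4 reached 1 FPKM on average, summed to 2.85, 3.48, 8.41 and 7.50 FPKM with miR-204, against 1.59, 0.854, 2.81 and 4.78 FPKM with miR-Ctrl, and their part in the Eno3 values was not tested. Pygb, a glycogen phosphorylase gene, averaged 16.4 ± 0.563 and 12.9 ± 0.321 FPKM (0.32, limma adjusted p = 0.00597), and its groups did not overlap. Tgfb3, a growth factor gene (0.31, limma adjusted p = 0.0139), Hmox1, the heme oxygenase gene (0.26, 0.0450), and Plaur, the urokinase receptor gene (0.23, 0.04999), followed with smaller changes. The last 2 had limma adjusted p-values of 0.0961 and 0.107 with the block and centred libraries. Over the 73 genes the median log2 fold change was 0.055, against 0.064 over all genes.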

How the data were processed

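RNA was sequenced from polyadenylated, strand-marked libraries, per the labels' protocols. The authors deposited FPKM, 1 value for each gene in each library. Per the submitters' processing notes, TopHat, Cufflinks 2.2.1 and mm10 were used. The TopHat version and the Cufflinks mode were not given in the sources used here. A gene's FPKM also drops when abundant genes take up more fragments.

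Genes averaging 1 FPKM or more were tested with limma 3.58.1 (R 4.3.3, trended prior) on log2(FPKM + 1), a scale that understates changes of low genes. P-values were two-sided and adjusted by Benjamini-Hochberg over all 11612 genes. The main fit had no block. Across genes, deviations from the group mean correlated within replicate numbers 1 to 4 at r = 0.44, 0.82, 0.76 and 0.62. Every library matched its own number best. The labels give these numbers but do not say that equal numbers are pairs. Reading them as pairs rests on the numbers and on these correlations. The tests were also run on simulated data. The outcome is not given here, so their error rates in these libraries remain unknown.

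Members, role classes and lists were chosen with earlier results of these data known. Values in all libraries are given for members called in either fit and the 2 highest of each class, and the wider list names the 6 largest called changes. Ldha, Epas1, Hk2 and other members singled out were chosen after their values were seen. Alternatives changed the pseudocount, filter, scaling, block and libraries.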

Additional observations from a re-analysis of the deposited data

Results flagged for a closer look

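Within each group of 4 libraries, a value was picked out when the gap between the highest or lowest library and its nearest neighbour exceeded the critical share of the group's range in Dixon's test. Chance alone does so in about 1 in 20 groups of independent, normally distributed values. Among the 42 genes, 4 were picked out with miR-204 and 9 with miR-Ctrl, or 9.52% and 21.4%, against 5.70% and 6.21% of all genes. Genes measured in the same library are not independent, so these shares cannot be tested against 1 in 20.

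All 4 with miR-204 lay in replicate 2, or 9.52% of the 42 genes, against 3.19% of all genes picked out in that library. Egln1 was at 11.3 FPKM there, against 9.11 to 9.32 FPKM in the other 3 libraries. Slc16a1 was at 58.6 FPKM against 18.0 to 21.8, and Car12 at 5.74 against 3.69 to 3.94. Ldhb was the lowest there, at 53.1 FPKM against 74.2 to 74.8.

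With miR-Ctrl, 7 of the 9 lay in replicate 2, or 16.7% of the 42 genes, against 3.95% of all genes. Egln1 was at 17.1 FPKM there against 8.40 to 8.87 in the other 3 libraries, and Egln3 at 2.52 against 0.555 to 0.586. Egln3 averaged at least 1 FPKM only through its replicate 2 libraries, so the filter itself selected it for high values there. Slc2a1 was at 54.8 FPKM against 34.6 to 35.8, Slc16a1 at 77.2 against 18.8 to 21.5 and Gpi1 at 120 against 66.1 to 69.5. Gapdh was at 1359 FPKM against 806 to 859, and Ldhb was the lowest at 41.9 against 59.5 to 62.0. The other two were Pdk3, highest in replicate 4 at 18.2 FPKM against 13.8 to 14.4, and Ero1l, lowest in replicate 3 at 37 FPKM against 47.3 to 49.0.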

How the results depend on the processing

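Of the 42 genes, 13 kept the sign of their fold change in all 22 alternatives, 3 below the 5 FPKM filter kept it in the other 21 and 26 did not keep it, while 22 were called in none. Of the 26, only Ldha was called in a fit where its sign differed from that of the main fit. Its log2 fold change was 0.20 with the replicate block and without replicate 2, against −0.0095 in the main fit. The cause of that reversal was not tested. With the replicate block, calls among the 42 genes went to 3 higher, with centring or quantile scaling as well to 1 higher and 1 lower, without replicate 2 to 19 higher, without replicate 3 to 1, and centred without replicate 2 to 8 higher and 1 lower. Over all genes (3 higher, 21 lower) the same settings gave 1436 and 329 (block), 579 and 502 (block, centred), 555 and 536 (block, quantile), 1271 and 1027 (block, centred, without replicate 2), and 89 and 83, 2781 and 522, 236 and 149, and 42 and 48 with the block and without replicates 1 to 4. Without the block they were 0 and 9 with no filter, 8 and 55 with centring and 7 and 66 with quantile scaling; leaving out 1 library gave 0 to 4 higher and 1 to 16 lower. In the wider list (0 higher, 1 lower) the block gave 6 higher, centred or quantile-scaled 3 and 3, and without replicates 1, 2 and 3 it gave 1, 22 and 2 higher, with 2 lower without replicate 2. Centred without replicate 2 gave 9 and 7, a filter of 5 FPKM gave 1 higher, no filter gave 0 lower, and leaving out 1 library gave 0 to 1 lower. Counting 6mers put seed matches in 9 of the 42 genes instead of 3, against 36.9% of all genes, and ACGTG alone gave 22 genes with a core instead of 34. The cause of these shifts was not tested. Alternatives with quantile scaling and block, and with centring, block and no replicate 2, and the filter on the other 6 libraries (9 genes high in replicate 2 instead of 10) were added after the data were seen. Depth in reads is unknown, which limits low genes such as Egln3 and Pfkfb4.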

Other observations

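In the wider list, 14 of the 73 genes above the filter stood at least 1.5-fold over the other 3 libraries in replicate 2 of both groups, against 6.05% of all genes. Nos2 passed the filter only through replicate 2, and without it the count was 13 of 72. The following were chosen after their values were seen. Nos2, the inducible nitric oxide synthase gene, was at 20.6 FPKM with miR-204 and 21.2 FPKM with miR-Ctrl in replicate 2, against 0.0404 to 0.902 and 0.0350 to 0.546 FPKM in the other 3 libraries, levels too near 0 for a firm fold. Angptl4, a lipoprotein lipase inhibitor and HIF target, was 10.98- and 15.0-fold above them, at 121 FPKM with miR-204 and 155 FPKM with miR-Ctrl. Lox, which crosslinks collagen, was 2.36- and 2.21-fold above them, and the zinc-binding Mt2 2.32- and 4.32-fold. Other genes of the list lay below those libraries, such as Cox4i2 at 0.477- and 0.473-fold and Ppp1r3c at 0.672- and 0.674-fold. Bsg, the chaperone of the lactate carriers, was at 446, 550, 348 and 363 FPKM with miR-204, against 372, 717, 306 and 334 FPKM with miR-Ctrl. Its paired differences were 0.26, −0.38, 0.19 and 0.12 on the log2(FPKM + 1) scale, the same order of signs as Ldha.

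Replicate 3 was the lowest library of its group for 18 of the 42 genes with miR-204 and 26 with miR-Ctrl, against 38.2% and 46% of all genes. Its chondrocyte marker sums were the highest of each group, at 33261 FPKM with miR-204 and 41421 FPKM with miR-Ctrl.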
